A study of Mus musculus with 2 samples.

Results

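The 46 genes described here encode nuclear receptors other than the androgen receptor. They were taken as a named list, and each was represented by the ATAC-seq peaks in its mm10 gene body and 10 kb on either side, its locus. They are 46 of the 21887 protein-coding genes on chromosomes 1 to 19, X and Y. For this report they were divided into 5 steroid, 6 retinoid, 13 metabolic and 22 orphan receptors. ATAC-seq marks open DNA by the insertion of sequencing adapters with a transposase. The libraries came from prostate tumor cells of C57BL/6 mice in a study of progression toward neuroendocrine prostate cancer (NEPC). M6 is the late stage, with 6 months of tamoxifen, and W2 the early stage, with 2 weeks of tamoxifen, and each had 1 library. The sources used here do not give the tumor genotype, the ages of the mice, the number of mice per library, or whether cells were cultured. Tamoxifen is a ligand of the estrogen receptors and is widely used to switch on recombinases fused to their ligand-binding domain; both groups received it, so the length of treatment and the stage cannot be told apart. No difference below has a replicate check.

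Nuclear receptors are transcription factors that mostly share a zinc-finger DNA-binding domain and a pocket for small lipophilic ligands. Steroid receptors bind DNA largely as pairs of the same protein, while retinoid, thyroid hormone, vitamin D and lipid-sensing receptors pair with a retinoid X receptor. Orphan is a loose term for receptors named before a ligand was known, and the line between the orphan and metabolic classes was a choice made for this report. In prostate cancer the glucocorticoid receptor is known for taking over androgen receptor targets under androgen blockade, and in the mouse retinoid receptors are known for roles in prostate epithelium.

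M6 had 22570 peaks and W2 5735 on these chromosomes, and 20.2% of the M6 peaks and 80.5% of the W2 peaks overlapped a peak of the other library. The lowest local background, the tags expected at a summit from its surroundings, was 2.65 tags in M6 and 2.96 in W2, and the median summit pileup, the number of tags over a peak's highest point, was 21 in each. Marker loci of several cell types were counted as a check on the cells. Over all 30 marker genes 56.7% had a locus peak in M6 and 30.0% in W2. These shares are close to the 59.1% and 29.6% of all protein-coding genes, so a locus peak alone does not mark a cell type. Of 9 luminal epithelial genes, 7 had a locus peak in M6 and 4 in W2, among them Cdh1, Epcam and Cldn3 in both, while Hoxb13 had none in either. Of 6 neuroendocrine genes, 3 had one in M6 and 1 in W2, and Chga and Foxa2 had none in either. Fibroblast genes had 2 of 4 in M6 and 0 of 4 in W2, leukocyte genes 3 of 5 in each, endothelial genes 1 of 3 in M6 and 0 of 3 in W2, and smooth muscle genes 1 of 3 in each. Among these other cell types, Cd68 (3 peaks in M6 and 1 in W2), Cd79a, Coro1a and Cnn1 had locus peaks in both libraries, and Col1a1, Pdgfra and Pecam1 in M6 and not in W2. Ptprc, Cd3e, Col1a2, Dcn, Cdh5, Kdr, Acta2 and Myh11 had none in either. Of the luminal genes, 4 had more locus peaks in M6 and 2 had fewer. A peak within 1 kb of an annotated gene end was at 5 of 9 luminal genes in M6 and 3 in W2. The shares of all genes were 39.7% in M6 and 18.4% in W2. Neuroendocrine and leukocyte genes had 1 such gene each in M6 and 0 in W2. Fibroblast, endothelial and smooth muscle genes had 0 in both. The part of other cell types in the results below was not tested. In a bulk library, more cells with an open site and more signal per cell cannot be told apart.

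Most nuclear receptor loci held accessible regions at both stages, with more of them in M6. A locus peak was found at 35 of 46 members in M6 (76.1%, exact binomial 95% interval 61.2 to 87.4%) and at 27 of 46 in W2 (58.7%, 43.2 to 73.0%). Among all protein-coding genes these shares were 59.1% in M6 and 29.6% in W2. The 46 loci are long, with a median of 68.4 kb against 37.2 kb for all genes. Per 100 kb of locus the members had 1.53 peaks in M6 and 0.562 in W2, and all genes 1.62 in M6 and 0.523 in W2. In all, 93 distinct M6 peaks and 34 distinct W2 peaks lay at the 46 loci. Of these, 24 M6 peaks (25.8%, against 24.2% at all protein-coding loci) and 25 W2 peaks (73.5%, against 84.8%) overlapped a peak of the other library and are called shared.

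The members divided into 4 patterns. More peaks in M6 were found at 29 of 46 members (63.0%), against 44.4% of all genes, and fewer at 2 (4.35%, against 1.9%). A peak in M6 and none in W2 was found at 9 members (19.6%, against 30.5% of all genes). These were Pgr, Rarb, Rarg, Rxra, Vdr, Nr2e3, Nr2f1, Nr4a3 and Nr5a1. Pparg was the 1 member with a peak in W2 and none in M6 (2.17%, against 0.973%). Nr1i3, Nr2c1, Nr2c2, Nr2f2 and Nr1d2 had equal numbers above 0 in each library (5 of 46 members, against 3016 of 21887 genes). No locus peak in either library was found at the remaining 10 of 46 members, against 8734 of 21887 genes. These 10 members were Esr2, Rxrg, Hnf4a, Hnf4g, Nr1h4, Nr1i2, Esrrb, Nr2e1, Nr5a2 and Nr0b1.

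With an equal number of peaks the order of the libraries turned. The −log10 q is the authors' measure of a peak's strength within its own library. When each list was held to its 5735 strongest peaks by it, which kept M6 peaks from 10.8 upward, 19 of 46 members (41.3%) had a locus peak in M6 and 27 (58.7%) in W2. The shares of all genes were then 27.4% in M6 and 29.6% in W2. At the loci 28 M6 peaks and 34 W2 peaks were then counted. Rarb, with 3 of these strong M6 peaks, was then the 1 member with a peak in M6 and none in W2. The orphan class had 10 of 22 members in M6 and 14 in W2, the metabolic class 5 of 13 in M6 and 8 in W2, the steroid class 2 of 5 in M6 and 3 in W2, and the retinoid class 2 of 6 in each.

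**Figure D1:**
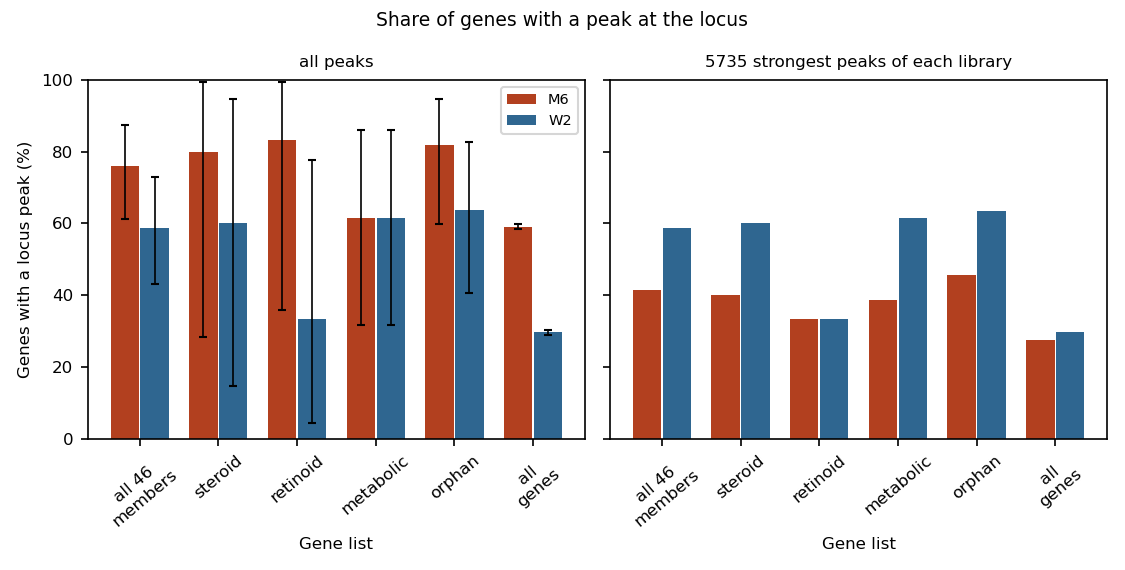
Percentage of genes with at least 1 locus peak (y axis) in M6 (red) and W2 (blue) for all 46 members, the 4 classes and all 21887 protein-coding genes, with all peaks (left, bars with exact binomial 95% intervals) and with the 5735 strongest peaks of each library (right). With all peaks the members had 76.1% in M6 and 58.7% in W2, and with equal numbers 41.3% in M6 and 58.7% in W2.

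**Figure D2:**
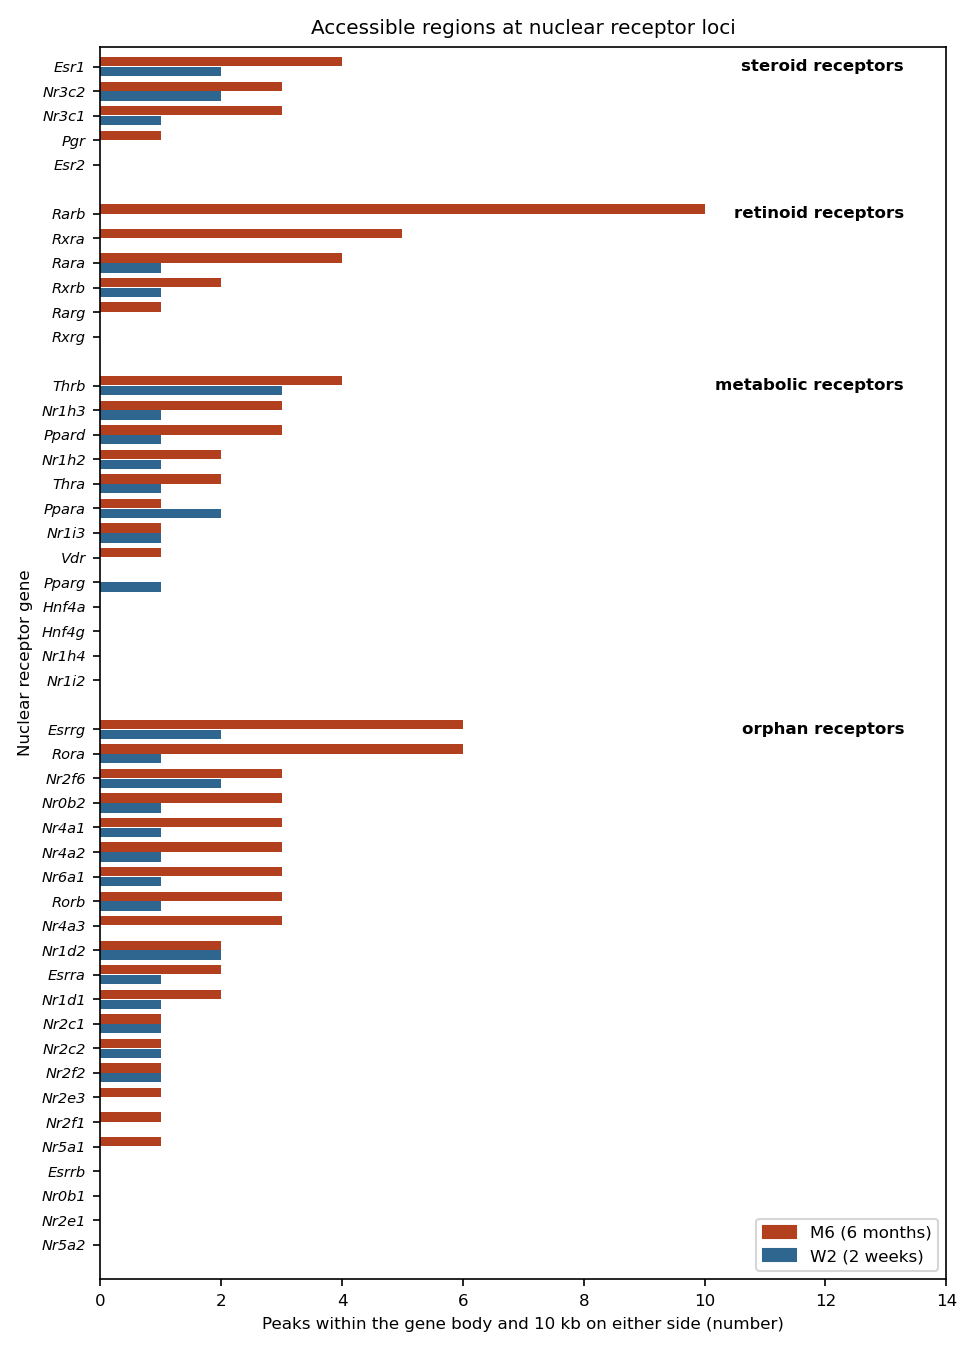
Number of peaks (x axis) within the gene body and 10 kb on either side of each nuclear receptor gene (y axis) in M6 (red, upper bar) and W2 (blue, lower bar), by class. Rarb had 10 M6 peaks and 0 in W2, and Ppara and Pparg had fewer in M6.

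Most receptors had no peak at an annotated gene end, one of which holds the promoter. A gene-end peak, within 1 kb of either annotated end, was found at 13 of 46 members in M6 (28.3%, 16.0 to 43.5%), against 39.7% of all genes, and at 9 in W2 (19.6%, 9.36 to 33.9%), against 18.4%. Both intervals contain the share of all genes, whereas those given above for locus peaks do not. All these intervals cover counting error only, on a list that was not drawn at random, and no test was made. With equal numbers of peaks by −log10 q the order turned, to 7 members in M6 and 9 in W2. Gene-end peaks of all genes were not counted at equal numbers, so whether this turn is particular to the members is not known. The locus shares of all genes turned there as well, to 27.4% in M6 and 29.6% in W2. With all peaks, a gene-end peak was present in both libraries at 7 of 46 members, against 3891 of 21887 genes. These were Rxrb, Nr1h2, Nr1h3, Esrra, Rorb, Nr1d2 and Nr2c2. A gene-end peak was present in M6 and not in W2 at 6 members (13.0%, against 21.9% of all genes), namely Ppard, Nr1d1, Nr4a2, Nr4a3, Nr6a1 and Nr0b2. The reverse was found at 2 of 46 members, Thrb and Ppara, against 142 of 21887 genes. Because some receptors start inside the annotated gene span, peaks were also counted over promoter windows, 250 bases before to 50 after an annotated start, which the sequence table holds for 42 members. This window was chosen after the data were seen. A peak covered part of such a window at 16 of 42 members in M6 (38.1%, against 38.3% of 17492 genes) and at 7 in W2 (16.7%, against 18.3%). The 6 of 42 with both, against 3090 of 17492 genes, were Rxrb, Nr3c2, Esrra, Rorb, Nr1d2 and Nr2c2. The 10 with M6 alone (23.8%, against 20.6% of all genes) were Rara, Thrb, Ppard, Esrrg, Nr1d1, Nr4a1, Nr4a2, Nr4a3, Nr6a1 and Nr0b2. Ppara had a W2 peak there and no M6 peak (1 of 42 members, against 116 of 17492 genes).

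The windows with the 4 strongest M6 peaks among those open in both libraries, and that of Thrb, are shown because open chromatin at these receptor starts recurs in the results below. All are from RefSeq, build GRCm38.p6, 300 bases from 250 before the start, read 5′ to 3′ along the gene. Capitals mark AGGTCA, the core hexamer that most non-steroid nuclear receptors bind. Nr1d2 lies at chr14:18239057-18239356 on the minus strand, Esrra at chr19:6921759-6922058 on the minus strand, Rorb at chr19:19111147-19111446 on the minus strand, Nr3c2 at chr8:76902080-76902379 on the plus strand and Thrb at chr14:17660710-17661009 on the plus strand.
Nr1d2: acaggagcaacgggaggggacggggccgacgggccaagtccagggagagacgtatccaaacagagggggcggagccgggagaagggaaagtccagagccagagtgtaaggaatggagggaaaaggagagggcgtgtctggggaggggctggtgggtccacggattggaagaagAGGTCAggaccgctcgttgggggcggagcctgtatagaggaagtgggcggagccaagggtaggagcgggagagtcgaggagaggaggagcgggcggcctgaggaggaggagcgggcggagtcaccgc
Esrra: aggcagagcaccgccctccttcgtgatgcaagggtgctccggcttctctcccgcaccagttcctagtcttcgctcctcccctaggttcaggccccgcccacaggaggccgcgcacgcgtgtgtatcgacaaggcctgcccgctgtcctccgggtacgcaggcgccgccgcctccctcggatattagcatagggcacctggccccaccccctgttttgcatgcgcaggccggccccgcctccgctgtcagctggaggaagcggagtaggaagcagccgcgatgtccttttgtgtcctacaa
Rorb: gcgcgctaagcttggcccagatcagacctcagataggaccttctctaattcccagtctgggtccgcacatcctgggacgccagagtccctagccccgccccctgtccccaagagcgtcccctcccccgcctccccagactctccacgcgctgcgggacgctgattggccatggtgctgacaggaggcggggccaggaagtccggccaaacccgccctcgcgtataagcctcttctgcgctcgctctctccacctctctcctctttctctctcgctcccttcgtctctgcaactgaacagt
Nr3c2: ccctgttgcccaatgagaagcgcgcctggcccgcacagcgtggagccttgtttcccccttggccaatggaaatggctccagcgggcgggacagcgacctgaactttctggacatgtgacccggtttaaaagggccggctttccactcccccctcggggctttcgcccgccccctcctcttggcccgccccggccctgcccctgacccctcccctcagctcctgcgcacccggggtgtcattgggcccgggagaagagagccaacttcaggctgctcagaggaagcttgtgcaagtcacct
Thrb: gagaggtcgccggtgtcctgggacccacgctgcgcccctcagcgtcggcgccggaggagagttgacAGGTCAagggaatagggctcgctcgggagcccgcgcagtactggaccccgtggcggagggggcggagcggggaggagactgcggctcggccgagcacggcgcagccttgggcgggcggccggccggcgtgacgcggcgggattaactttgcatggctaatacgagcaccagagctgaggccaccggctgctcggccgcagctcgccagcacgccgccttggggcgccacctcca

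AGGTCA was found 77 bases before the Nr1d2 start and 184 bases before the Thrb start. Of the 18 member windows that a peak touched, these 2 held AGGTCA on either strand. Over all 63 member windows 12 held it (19.0%), against 16.3% of 32851 promoter windows of the table. The longer forms AAAGGTCA and TCAAGGTCA, which contain the hexamer and are bound by receptors that act as single proteins, and AGAACA, the hexamer of steroid receptors, were in none of the 18 peak-touched windows. AAAGGTCA lay in 2 of the 63 member windows (3.17%, against 1.51% of all windows), TCAAGGTCA in 0 (against 0.423%) and AGAACA in 5 (7.94%, against 19.0%). CACGTG, the E-box bound by clock factors, was searched after the values were seen and lay in 3 of the 18, the window of Nr0b2 and the 2 overlapping windows of Rara. Over all 63 member windows 6 held it (9.52%, against 7.15% of all windows). The 5 printed windows held 63.7 to 72.7% G and C.

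The steroid receptors had locus peaks inside their genes and none at their gene ends. Together the 5 genes had 11 M6 and 5 W2 peaks, of which 2 M6 and 2 W2 peaks were shared. Nr3c2, the mineralocorticoid receptor, had 3 M6 and 2 W2 peaks. The Nr3c2 start region, on chromosome 8 from 76901950 to 76902552, was open in both libraries, with a summit 215 bases upstream of the annotated start and a pileup of 36 tags in M6 and 30 in W2. The strongest M6 peak of the class (−log10 q 20.0, pileup 42) lay 326 kb downstream of the Nr3c2 start, from 77227708 to 77228197, and had no W2 counterpart. A further M6 peak lay 10.6 kb downstream of the start (pileup 30), also without a counterpart. A W2 peak (pileup 15) lay elsewhere in the gene, 268 kb from the start. Nr3c1, the glucocorticoid receptor on chromosome 18, had 3 M6 peaks and 1 W2 peak. The shared site (39491539 to 39491813) had 23 tags in M6 and 20 in W2, and the strongest M6 peak (39483599 to 39483890) reached 24 tags and a −log10 q of 11.4.

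Esr1, which encodes estrogen receptor alpha, had 4 M6 and 2 W2 peaks, none of them shared. An M6 peak 9.64 kb into the gene (4621127 to 4621673 on chromosome 10, pileup 17) and a W2 peak 8.97 kb into it (4620852 to 4621104, pileup 18) lay 22 bases apart. The strongest M6 peak (−log10 q 8.10, pileup 22) lay 2.62 kb downstream of an internal annotated start. The stronger W2 peak (−log10 q 5.65, pileup 21) lay 13.5 kb downstream of the gene's first start. Pgr, the progesterone receptor, had a single M6 peak 1.96 kb downstream of its start (−log10 q 4.33, pileup 19) and none in W2. Esr2, estrogen receptor beta, had none in either.

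Among the 4 classes, retinoid receptors had the greatest ratio of M6 to W2 peaks, with 22 M6 peaks and 2 W2 peaks at 6 loci. Per 100 kb they had 2.25 peaks in M6 and 0.205 in W2, against 1.62 in M6 and 0.523 in W2 for all genes. With the equal number of peaks the class had 4 peaks in M6 and 2 in W2. Rarb, retinoic acid receptor beta and itself a classical retinoic acid target, had 10 M6 peaks and 0 in W2. Its locus is also 671.5 kb long, and its M6 density of 1.49 peaks per 100 kb was near that of all genes, while its W2 density was 0. The strongest Rarb peaks lay on chromosome 14 at 16901675 to 16902255 (−log10 q 18.9, pileup 35), at 16764323 to 16764678 (14.5, 28 tags) and at 16510629 to 16510956 (12.02, 26 tags). All 10 lay in the annotated gene body, the first of these 326 kb upstream of the nearest start in the sequence table, which holds no start for the longer annotated span. The nearest to that start, 8.27 kb downstream, was weak (−log10 q 3.30, pileup 13).

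Rxra, the most widely used partner receptor, had 5 M6 peaks and 0 in W2, at 4.68 peaks per 100 kb in M6. All were inside the gene, with pileups of 16 to 25 tags, and the strongest (27724781 to 27725041 on chromosome 2) reached a −log10 q of 8.83. Rara, retinoic acid receptor alpha, had 4 M6 peaks and 1 in W2. The shared site (98951477 to 98951853 on chromosome 11) had 30 tags in M6 and 19 in W2. The Rara promoter peak (98937480 to 98937885, pileup 28, background 6.64) was in M6 and not in W2, and its summit also lies in the predicted gene Gm46294. Rxrb had a gene-end peak in each library, with 25 tags in M6 and 17 in W2, within 1 kb of an end of Slc39a7. The −log10 q there was 5.01 in M6 and 2.36 in W2, where the peak ranked 5653 of 5735. The stronger M6 peak at Rxrb (−log10 q 10.9, pileup 37) lay 3.59 kb outside the gene, at ends of H2-Ke6 and Slc39a7. Rarg had 1 M6 peak, 9.96 kb from the gene and inside Itgb7, and none in W2. Rxrg had none in either. Omitting peaks with a summit in another protein-coding gene or within 1 kb of its ends left the class with 18 M6 peaks and 1 W2 peak.

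**Figure D3:**
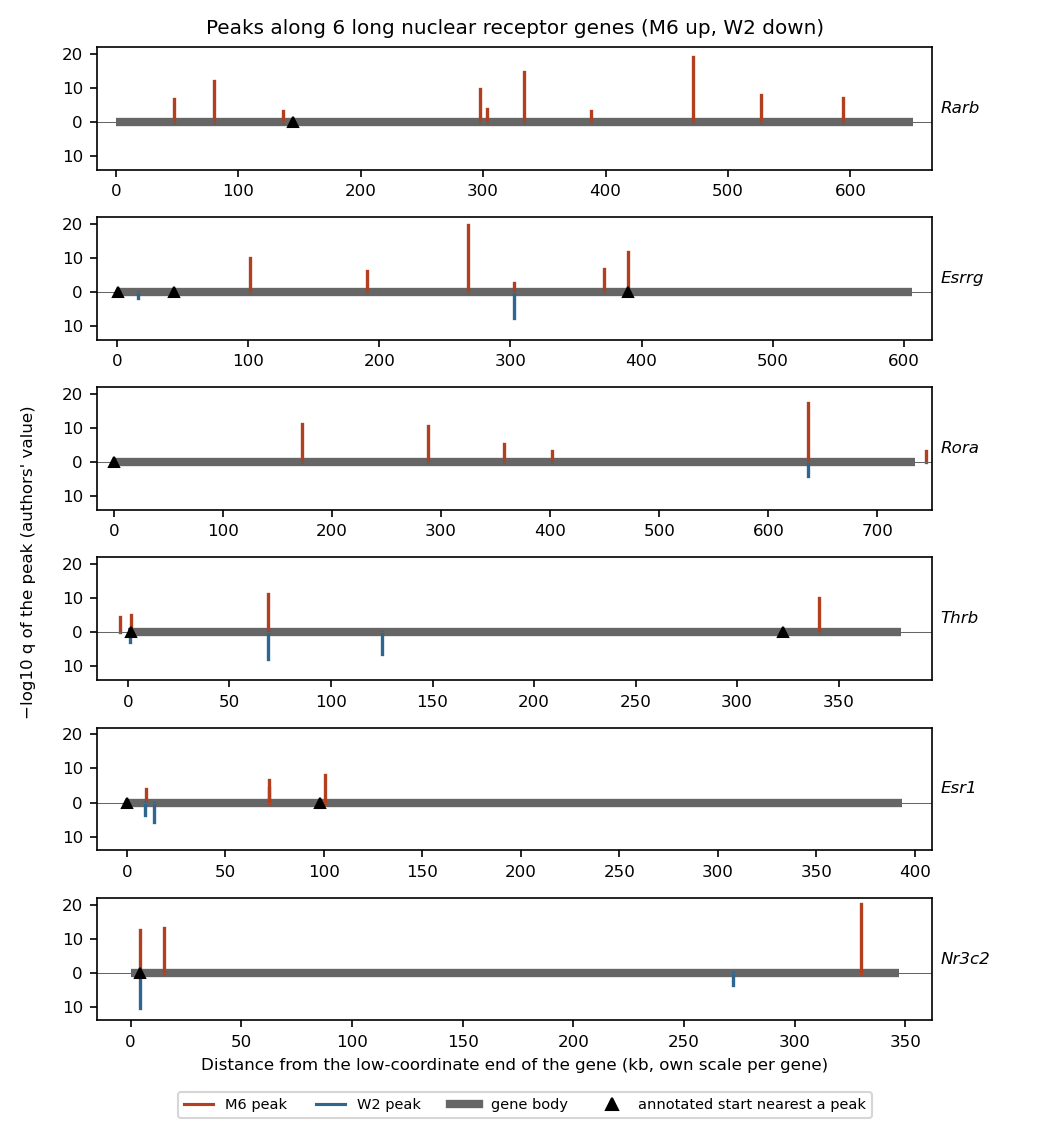
Peaks along 6 long nuclear receptor genes, as distance from the low-coordinate end in kb (x axis) and the authors' −log10 q (y axis), with M6 peaks drawn up in red and W2 peaks down in blue; triangles are the annotated starts nearest a peak. Rarb had 10 M6 peaks and no W2 peak, while Rora and Nr3c2 each had 1 site open in both libraries.

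Metabolic receptors, the sensors of thyroid hormone, vitamin D, fatty acids, oxysterols, bile acids and foreign compounds, had 17 M6 and 11 W2 peaks. In each library 8 of 13 members had a locus peak (61.5%), against 59.1% of all genes in M6 and 29.6% in W2. Omitting peaks in or within 1 kb of the ends of other protein-coding genes left 8 M6 and 4 W2 peaks. These lay at 5 of 13 members in M6 and 3 in W2, and the rule was not applied to all genes. The 2 members with fewer peaks in M6 were in this class. Ppara, the receptor behind fatty acid oxidation, had 1 M6 and 2 W2 peaks. Its W2 start peak (85735346 to 85735792 on chromosome 15, −log10 q 8.56, pileup 22) had no M6 counterpart. The other site, 4.43 kb beyond the gene at the end of the neighbouring Cdpf1, had 25 tags in M6 and 17 in W2. Pparg, the regulator of fat cell formation, had no M6 peak and 1 W2 peak (115463038 to 115463237 on chromosome 6, −log10 q 6.27, pileup 19) inside the gene. Ppard had 3 M6 peaks and 1 in W2. Its strongest M6 peak (−log10 q 19.8) lay 8.28 kb outside the gene within Def6 and was shared, with 41 tags in M6 and 24 in W2, while the peak at the Ppard start was in M6 and not in W2 and was weak (−log10 q 3.30, pileup 17).

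The liver X receptors Nr1h2 and Nr1h3, sensors of oxysterols, had a shared site at the end far from the promoter, while the peaks nearest their starts were in M6 and not in W2. At Nr1h2 the shared site (44548743 to 44549055 on chromosome 7) had 38 tags in M6 and 18 in W2, within 1 kb of an end of Pold1. A second Nr1h2 peak, 398 bases downstream of the start, was in M6 and not in W2 (−log10 q 5.88, pileup 23). At Nr1h3 the shared site had 32 tags in M6 and 21 in W2 and lies in Madd near its end. An M6 peak in the neighbouring Acp2 (pileup 20) and a further M6 peak 327 bases downstream of the Nr1h3 start (−log10 q 6.18, pileup 18) had no W2 counterparts. Nr1i3, a sensor of foreign compounds, had 1 shared site with 34 tags in each library. It was the strongest W2 peak of all 46 loci (−log10 q 16.7) and lies 3.60 kb beyond Nr1i3, at Apoa2 and Tomm40l.

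The Thrb locus held peaks in each library at partly different sites. Thrb had 4 M6 and 3 W2 peaks, of which the site at 17727964 to 17728261 on chromosome 14 was shared, with 28 tags in M6 and 21 in W2. Near the Thrb start the M6 peak had its summit 24 bases upstream (−log10 q 5.24, pileup 19) and the W2 peak 917 bases upstream (pileup 15). Both summits also lie in another annotated gene, LOC115488350, near its end. The W2 peak was weak (−log10 q 2.82, rank 5563 of 5735), and 300 bases lay between it and the M6 peak. The strongest unshared M6 peak at Thrb (17999356 to 17999688, −log10 q 10.2, pileup 23) lay 17.9 kb downstream of an internal start. An unshared W2 peak lay 124 kb downstream of the gene's first start in the table (pileup 19). Thra had no peak of its own: its 2 M6 peaks and 1 W2 peak are those of the overlapping locus of Nr1d1. Vdr, the vitamin D receptor, had 1 weak M6 peak (−log10 q 4.17, pileup 15) and none in W2.

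Orphan receptors had 45 M6 and 17 W2 peaks, and the strongest M6 peak of the whole family was among them. That peak covered the start of Nr1d2 (18238346 to 18239558 on chromosome 14), which encodes the heme-binding clock repressor Rev-erb beta, the gene of the first sequence shown above. It was 1213 bases wide, held 69 tags over a background of 8.70, had a fold of 7.22, and ranked 171 of 22570 with a −log10 q of 32.7. W2 had 2 peaks under it, with 27 and 20 tags over backgrounds of 4.60 and 4.74. A second M6 peak in Nr1d2, 12.7 kb downstream (−log10 q 16.9, pileup 32), had no W2 counterpart. Nr1d1, Rev-erb alpha, had 2 M6 peaks, 57 bases (pileup 21) and 1.28 kb (pileup 27) downstream of its start, and 1 W2 peak 2.31 kb downstream (pileup 26), and the libraries shared no site there. Rora, an activator that acts on the same DNA elements as the Rev-erb repressors, had 6 M6 peaks and 1 in W2, with 32 tags in M6 and 16 in W2 at the shared site deep in the gene. Rorb, a relative known from retina and brain, was open at its start in both, with 29 tags in M6 and 21 in W2.

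Estrogen-related receptors differed among themselves. Esrra, a driver of mitochondrial genes, was open at its start in both libraries (6921725 to 6922456 on chromosome 19), with 42 tags in M6 and 28 in W2, within 1 kb of an end of Catsperz. Esrrg had 6 M6 and 2 W2 peaks. The strongest (187875983 to 187876546 on chromosome 1) had the highest fold of all M6 peaks at the 46 loci, 9.04, with 32 tags (−log10 q 19.8) and no W2 counterpart. An M6 peak 4 bases from an internal Esrrg start (−log10 q 11.7, pileup 25) also had none. The shared Esrrg site, at 187910839 to 187911038, was the 1 shared site with fewer tags in M6, with 12 in M6 and 21 in W2. Esrrb had no peak in either library.

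The Nr4a genes, immediate early receptors that act without a known classical ligand, had start peaks in M6 and none in W2 at all 3 members, a pattern that 20.6% of all genes had. The start peaks had 22 tags at Nr4a1, 15 at Nr4a2 and 24 at Nr4a3, with −log10 q of 6.63, 2.85 and 4.78, against a median of 6.92 in the M6 list, and none of them is among the 5735 strongest M6 peaks. The summit of the Nr4a2 start peak also lies in another annotated gene, LOC105244150, near its end. Sites outside the starts were shared at Nr4a1, 7.14 kb from the gene, with 35 tags in M6 and 25 in W2, and inside Nr4a2, with 33 tags in M6 and 20 in W2. Nr4a3 had 3 M6 peaks and none in W2.

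The COUP-TF loci differed in peak density, with peaks in neighbouring genes counted. Nr2f2 (COUP-TFII) had 1 shared site, with 24 tags in M6 and 20 in W2, and Nr2f1 had 1 weak M6 peak 1.58 kb from the gene (−log10 q 4.23) and none in W2. Nr2f6 had 3 M6 and 2 W2 peaks in a locus of 27.9 kb, or 10.8 per 100 kb in M6 and 7.18 in W2. The shared site with 58 tags in M6 lies 2.34 kb outside Nr2f6, within Ocel1, and the unshared M6 peak lies within Use1. Without peaks in or at other genes, 1 M6 and 1 W2 peak were left at Nr2f6. The shared sites of this locus had 58 and 47 tags in M6 and 31 and 24 in W2. The local background was 10.9 and 9.74 tags in M6 and 5.66 and 5.36 in W2. The folds were therefore 4.96 and 4.47 in M6 and 4.80 and 3.93 in W2. The backgrounds at this locus were the highest among the member peaks, against library medians of 3.52 in M6 and 3.44 in W2. The testicular receptor Nr2c2 was open at its start in both, with 28 tags in M6 and 25 in W2, and Nr2c1 had a single shared site at the neighbouring Ndufa12, with 18 tags in M6 and 13 in W2. Nr6a1, the germ cell nuclear factor, had a start peak in M6 and not in W2 (38926058 to 38926900 on chromosome 2, −log10 q 15.6, pileup 41) and a shared intragenic site with 31 tags in M6 and 17 in W2. Nr0b2, the corepressor-like receptor SHP, had a shared site 7.16 kb upstream near Nudc, with 32 tags in M6 and 25 in W2, and a start peak in M6 and not in W2 (pileup 17). Nr5a1, the steroidogenic factor, had 1 M6 peak 2.36 kb from the gene (pileup 23), and Nr2e3, a photoreceptor factor, 1 weak M6 peak (pileup 15).

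**Figure D4:**
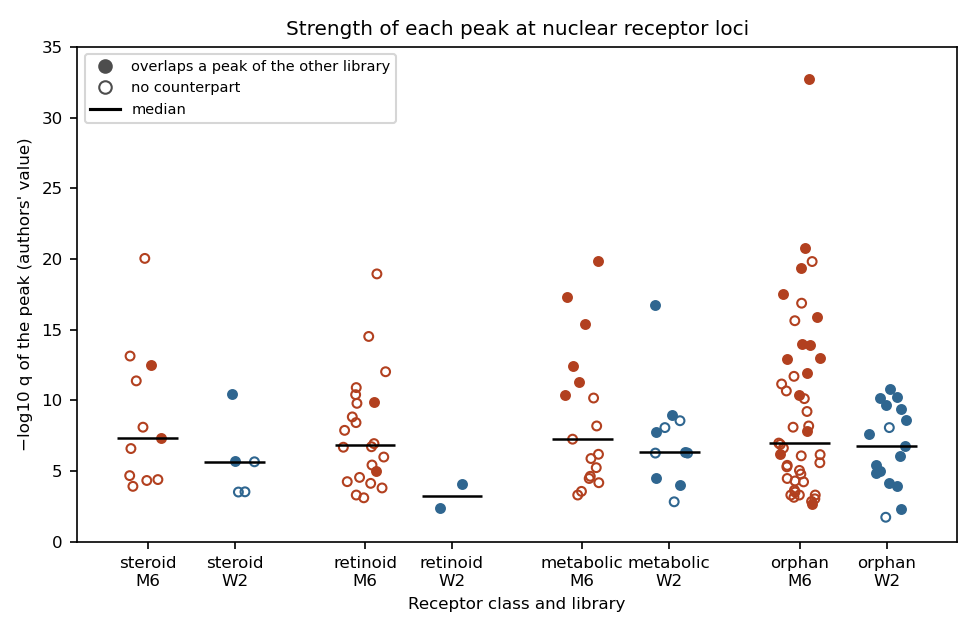
The authors' −log10 q (y axis) of every peak at the loci of each class (x axis), M6 in red and W2 in blue, filled where the peak overlaps one of the other library and open where it does not, with the median as a black line. The Nr1d2 start peak, at 32.7, is the highest point.

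At sites open in both libraries the M6 pileup was mostly the higher, as it was across the genome. The 25 shared W2 sites at the member loci had a median of 32 tags in M6 and 21 in W2, and M6 was higher at 23 of them (92.0%). The median log2 ratio was 0.56, against 0.55 over all 4618 shared sites, of which 85.8% were higher in M6. Nr1i3 was equal and Esrrg lower in M6. The greatest ratios were at Nr1d2 (3.45 and 2.56 for its 2 W2 peaks), Nr1h2 (2.11), Rora (2.00) and Nr2f6 (1.96 and 1.87). At Nr1d2 the same wide M6 peak was set against both W2 peaks. Its summit lies in the W2 peak with the ratio of 2.56 and outside the other. The 3.45 therefore does not compare the libraries at the same point. On the fold over local background the median log2 ratio was 0.19 at the member sites and 0.26 over all shared sites, and M6 was higher at 19 of 25 member sites (76.0%, against 76.6%). Peaks without a counterpart had fewer tags than shared ones at the median, at the members as in the whole lists. The 69 unshared M6 peaks had a median of 21 tags, against 32 for the 24 shared M6 peaks, and the 9 unshared W2 peaks had 19, against 21 for the 25 shared W2 peaks. Over the whole lists unshared M6 peaks had 19 and shared ones 31, and unshared W2 peaks had 19 and shared ones 21. The weakest peaks of the whole lists had 10 tags in M6 and 12 in W2, so an absent peak says only that no region passed the authors' unstated threshold.

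**Figure D5:**
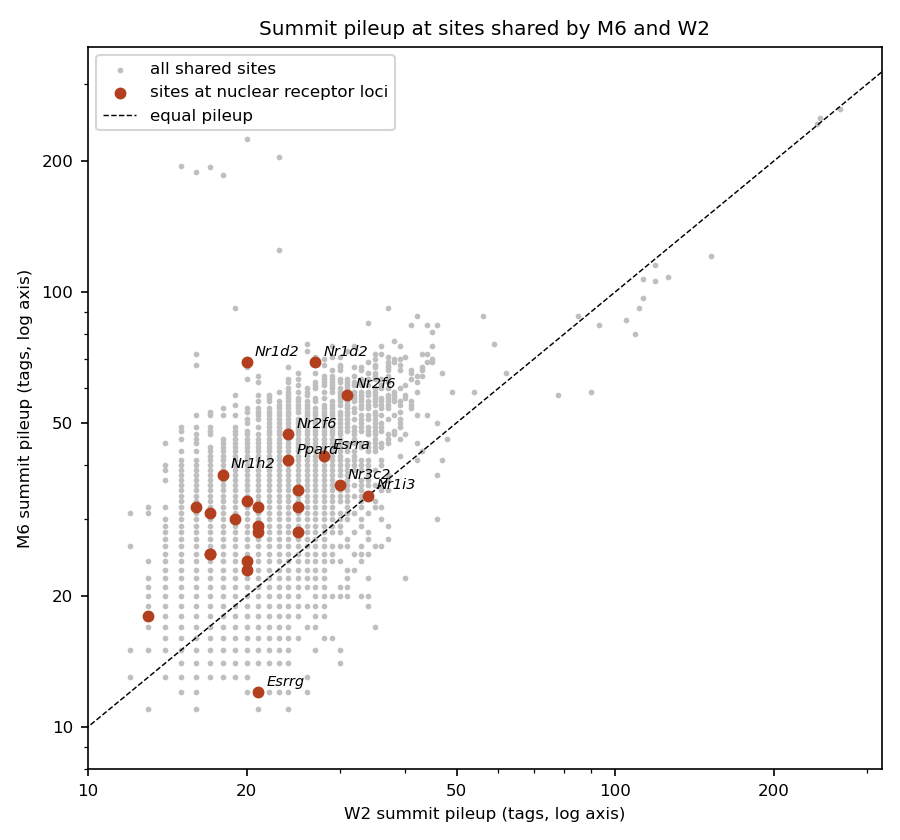
Summit pileup in tags in M6 (y axis) and W2 (x axis), both on log axes, at sites shared by the libraries; red points are the 25 sites at nuclear receptor loci, grey points the 4618 shared sites of the genome, and the dashed line equal pileup. Among the red points Esrrg lies below the line (12 tags in M6, 21 in W2) and Nr1d2 farthest above it (69 tags in M6, 20 and 27 in W2). Both Nr1d2 points use the same M6 peak, whose summit lies in the W2 peak of 27 tags.

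Some of the peaks at the 46 loci lay in or at other genes. When peaks with a summit in another protein-coding gene, or within 1 kb of its ends, were left out, 73 of the 93 M6 peaks and 23 of the 34 W2 peaks were kept, and 28 members had a locus peak in M6 and 18 in W2. This rule was not applied to all genes, so these member counts cannot be set against a share of all genes.

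Cofactors and known targets of the receptors, 51 genes listed by role, had gene-end peaks at 26 genes in M6 and 11 in W2, all 11 of which also had one in M6. As shares of the list these were 51.0% in M6, against 39.7% of all genes, and 21.6% in W2, against 18.4%. Coactivators had 4 of 8 in M6 and 0 in W2, corepressors 4 of 5 in M6 and 1 in W2, and the chaperones that fold steroid receptors 5 of 5 in M6 and 2 in W2. Ppargc1a, a coactivator of nuclear receptors that drive mitochondrial genes, had the strongest locus peak of these lists in M6 (−log10 q 34.5), and Stip1, a chaperone organizer, the strongest gene-end peak (28.7). Targets of steroid receptors had 3 of 6 in M6 and 2 in W2, with Fkbp5 and Per1 open in both. Targets of the metabolic receptors had 4 of 11 in M6 and 3 in W2, with Abca1, the cholesterol exporter, Mylip and Klf9 open in both. Clock genes tied to the Rev-erb and ROR receptors had 5 of 6 in M6 and 3 in W2, with Per2, Cry1 and Dbp open in both. Genes of retinoid metabolism had the fewest, 1 of 10 in M6 (Stra6, the retinol-binding protein receptor) and 0 in W2, and 3 locus peaks in each library. Cyp26a1, Cyp26b1, Dhrs3 and Crabp2 had no locus peak in either library.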

How the data were processed

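ATAC-seq peak lists of 1 M6 and 1 W2 library were used, each with its own list and nothing pooled. The build is mm10; Trim Galore 0.5.0, Bowtie2, SAMtools 1.4 and deepTools are named per the submitters' processing notes. The peak caller, its threshold, duplicate handling and any transposase shift are not stated in those sources. Each peak has a deposited fold (a ratio over local background in the same library), the authors' −log10 p and −log10 q, and a deposited score, which is the −log10 q rescaled and was not used.

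The whole-number summit pileup was solved for from each deposited fold and −log10 p, assuming 1 tag added to pileup and background alike and a Poisson upper tail. It was found within 0.001 of the −log10 p for 100% of peaks in both libraries, and the step was tested on simulated data. Read depth is not known. Chromosomes 1 to 19, X and Y were kept, leaving out 24 M6 and 30 W2 peaks.

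Genes are the 21887 protein-coding genes of RefSeq's GRCm38.p6 table, the assembly of mm10, and all 46 members matched by symbol. A locus adds 10 kb on either side of the gene, a gene-end peak lies within 1 kb of an annotated end, and 1 base of overlap makes peaks shared. Exact Clopper-Pearson intervals (95%) cover counting error only, and with 1 library per time point no test was made. The members and lists were chosen with earlier results of these data known. Some marker genes enter the counts of their lists and are not reported here by name. Values are given for members with a gene-end peak or a W2 peak and for the 4 of each class with the highest M6 −log10 q. Alternatives used equal numbers of peaks, a stricter −log10 q, other flanks and windows, and other overlap rules. Python 3.11.15, pandas 2.3.3 and SciPy 1.17.1 were used.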

Additional observations from a re-analysis of the deposited data

How the results depend on the processing

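With equal numbers of peaks, ranked by −log10 q, 19 members had an M6 locus peak, 28 M6 peaks lay at the loci, 7 members had an M6 gene-end peak (9 in W2) and 1 member had an M6 peak and no W2 peak; ranked by fold, these were 16, 23, 5 and 1, with 11 M6 peaks shared. Both settings remove M6 peaks and leave all W2 peaks. Under a minimum −log10 q of 5, 22 W2 peaks and 8 members with an M6 gene-end peak were left. A flank of 50 kb gave 148 M6 and 56 W2 peaks, 39 of the M6 peaks shared, and a flank of 0 kb left 15 shared. Without peaks in or at other genes, an alternative added after the data were seen, 4 members had a W2 gene-end peak and 14 M6 peaks were shared. That alternative was not counted over all genes. The other 40 recomputed counts were within 1.5 times of the reported ones. No paired analysis was possible because each time point had 1 library. Read depth is unknown, and no listed peak has under 10 tags.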
